A study of Mus musculus with 7 samples.

Results

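The 31 genes described here encode the chaperones of the endoplasmic reticulum (ER), the enzymes that form disulfide bonds in it, the machinery that removes misfolded proteins from it, and the sensors and transcription factors that answer ER stress. They were chosen by symbol from the table of 43346 genes, and all 31 were found and were measured in all 7 colon tumors. By role they are 11 chaperones and co-chaperones, 3 disulfide isomerases, 7 genes of ER-associated degradation, the 3 stress sensors *Atf6*, *Ern1* and *Eif2ak3*, the epithelial sensor *Ern2*, 5 transcription factors and regulators, and *Sec61b* of the translocon. Proteins bound for secretion or for a membrane fold in the ER. When unfolded proteins accumulate there, IRE1 (encoded by *Ern1*) splices the mRNA of *Xbp1*, PERK (encoded by *Eif2ak3*) slows translation and raises ATF4, and ATF6 moves to the Golgi, where it is cut to release a transcription factor. Goblet cells of the colon, which secrete large amounts of mucin, use a form of IRE1 of their own, IRE1β, encoded by *Ern2*.

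Whole colon tumors were dissected from lethally irradiated wild-type mice (C57BL6/J by the labels, a congenic strain by the study's methods) that had received *Dnmt3a*+/Δ bone marrow (BM; 4 tumors) or *Dnmt3a*+/+ BM (3 tumors, called control tumors here), and their polyadenylated RNA was sequenced. After transplantation, colitis-associated cancer had been induced in both groups by azoxymethane, a carcinogen injected 1 time (10 mg/kg), and then by dextran sulfate sodium (3 cycles at 3%), an agent that causes colitis. The donors of both groups carried the *Mx1*-Cre transgene, which poly(I:C) switches on, and only the donors of the first group carried a floxed *Dnmt3a* allele, so the heterozygous deletion was in the grafted blood cells and not in the epithelium or stroma of the recipients. Recipients were 8 wk old by the sample labels and 6 wk by the study's methods. Sample names begin with BMT18 (replicates 1 and 2 of each group) or BMT8 (control replicate 3 and *Dnmt3a*+/Δ BM replicates 3 and 4). These are taken here as 2 transplantation experiments, an inference from the prefix. The sample names of *Dnmt3a*+/Δ BM replicates 2 to 4 also hold a further number after the sample number. Those of the control tumors and of *Dnmt3a*+/Δ BM replicate 1 do not. The meaning of that number is not known here, and its part in the differences by graft was not tested.

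Total counts were 38472738 to 64314999 per tumor. Levels are given as counts per 1000000 (CPM) of the library size scaled by edgeR's TMM method, and values of single tumors follow the order of replicates 1 to 3 (control) and 1 to 4 (*Dnmt3a*+/Δ BM). *Dnmt3a* itself was at 24.3, 23.1 and 20.2 CPM in the control tumors and 27.7, 43.0, 28.3 and 22.0 CPM in the *Dnmt3a*+/Δ BM tumors, and reads of the recipients' own cells keep it from checking the labels. The epithelial marker *Epcam* was between 1543 and 3239 CPM in every tumor. *Dnmt3a*+/Δ BM replicate 2 stood apart from the others on principal component 1 (42.9% of the variance). Its summed CPM was 1081 for 10 fibroblast markers, against 177 to 374 in the other 6 tumors, and 144 for 8 endothelial markers, against 16.8 to 66.4. For 11 plasma cell markers it was 1920 CPM, against 649 to 1272, and for 10 epithelial markers 10816 CPM, against 15108 to 38798. For 7 macrophage markers it was 318 CPM, against 142 to 219.96, and for 6 leukocyte markers 203 CPM, against 44.2 to 108, while 6 neutrophil and 7 enteroendocrine markers, at 72.4 and 48.1 CPM, were within or below the range of the others. The 6 smooth muscle markers were at 22.6 CPM in control replicate 3 and at 243 to 1167 in the other tumors. Where leaving out *Dnmt3a*+/Δ BM replicate 2 moved a log2 fold change below by over 1.5 times or turned its sign, the value without it is given too.

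Many ER chaperone genes are read through the ER stress response element (ERSE), which ATF6 and NF-Y bind, and some through the shorter ERSE-II. RefSeq promoters (GRCm38.p6, 250 bases before to 50 bases after the transcription start) were available here for 25 of the 31 genes, and not for *Hyou1*, *Manf*, *Derl1*, *Atf6*, *Ern2* and *Creb3l1*. The letters of ERSE, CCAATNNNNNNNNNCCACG on either strand, occurred in 9 of the 25 genes and in 37 of all 27025 genes with a promoter (0.137%). ERSE-II, ATTGGNCCACG on either strand, occurred in 2 of the 25 and in 12 of the 27025 (0.0444%). These 2 motifs share the CCACG end and were not found at the same bases. The 12 sites are printed because genes with and without an ERSE are compared further on, where ERSE-II does not count as an ERSE. Each is read in the direction of its motif, with the fixed letters in capitals and the free ones in lower case. The first 10 are ERSE and the last 2 are ERSE-II.
*Hspa5*, chr2:34772025-34772043, plus strand: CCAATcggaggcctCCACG
*Hsp90b1*, chr10:86705638-86705656, minus strand: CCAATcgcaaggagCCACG
*Hsp90b1*, chr10:86705533-86705551, plus strand: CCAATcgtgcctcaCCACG
*Calr*, chr8:84847075-84847093, plus strand: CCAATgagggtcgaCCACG
*Canx*, chr11:50325800-50325818, minus strand: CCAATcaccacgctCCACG
*Dnajc3*, chr14:118937827-118937845, plus strand: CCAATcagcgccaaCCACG
*Creld2*, chr15:88819520-88819538, minus strand: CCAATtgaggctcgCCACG
*Pdia6*, chr12:17266491-17266509, plus strand: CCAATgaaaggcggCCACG
*Syvn1*, chr19:6046532-6046550, plus strand: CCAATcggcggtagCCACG
*Derl3*, chr10:75893242-75893260, minus strand: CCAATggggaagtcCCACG
*Dnajb11*, chr16:22857852-22857862, plus strand: ATTGGcCCACG
*Herpud1*, chr8:94386377-94386387, plus strand: ATTGGgCCACG
The genes with an ERSE were 6 chaperones (*Hspa5*, *Hsp90b1*, *Calr*, *Canx*, *Dnajc3* and *Creld2*), 1 disulfide isomerase and 2 degradation genes. Neither *Ern1* and *Eif2ak3* nor the 4 transcription factors and regulators with a promoter held one. The UPRE core TGACGTGG, on either strand, was in none of the 25, and in 0.714% of all genes with a promoter. The core of the ATF4 composite element, TGATGNAA on either strand, was in *Herpud1* and *Trib3*, and in 4.51% of all genes. A match describes the letters in this window and is not a measured binding site.

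The 250 bases before the RefSeq start of *Hspa5* and *Herpud1* are shown as a pair because, in the *Dnmt3a*+/Δ BM tumor that stood apart, the first gene was above and the second below all control tumors. Capitals mark the fixed letters of ERSE in *Hspa5* (65 bases before the start) and of ERSE-II in *Herpud1* (52 bases before the start). Both lie on the plus strand of GRCm38.p6.
*Hspa5*, chr2:34771840-34772089: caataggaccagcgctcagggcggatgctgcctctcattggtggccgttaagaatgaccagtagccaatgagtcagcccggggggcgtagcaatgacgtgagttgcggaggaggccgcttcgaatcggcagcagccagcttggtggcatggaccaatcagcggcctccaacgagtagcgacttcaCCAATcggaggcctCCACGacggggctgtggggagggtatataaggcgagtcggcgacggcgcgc
*Herpud1*, chr8:94386179-94386428: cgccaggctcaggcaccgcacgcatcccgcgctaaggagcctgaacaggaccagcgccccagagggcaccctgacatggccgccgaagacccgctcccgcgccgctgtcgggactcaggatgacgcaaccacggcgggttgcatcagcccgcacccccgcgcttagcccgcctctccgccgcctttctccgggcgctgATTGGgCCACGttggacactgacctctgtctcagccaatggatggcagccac

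Per kilobase of exon, 3 chaperones and an isomerase were the most abundant of the 31 genes. *Calr*, which encodes the lectin chaperone calreticulin, led with a mean of 432 CPM per kb over the 7 tumors. It was followed by *Pdia3*, its partner isomerase, with 334, by *Hspa5*, the Hsp70 chaperone BiP, with 229.6, and by *Hsp90b1*, the Hsp90 of the ER, with 204 CPM per kb. The sensors were far lower on the same scale, at 6.70 CPM per kb for *Eif2ak3*, 6.12 for *Atf6*, 4.64 for *Ern2* and 3.85 for *Ern1*. The ranges of these 4 over the tumors overlapped, from 1.54 to 10.1 CPM per kb for *Ern2* and from 4.48 to 8.63 for *Eif2ak3*. *Trib3*, an inhibitory pseudokinase induced by stress (1.24 CPM per kb), and *Derl3*, a degradation factor of secretory cells (0.227 CPM per kb), were the lowest. The other genes lay between 6.02 CPM per kb for *Ddit3* and 122 for *Sec61b*. The heat map of levels by tumor shows each gene against its own mean.

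**Figure D1:**
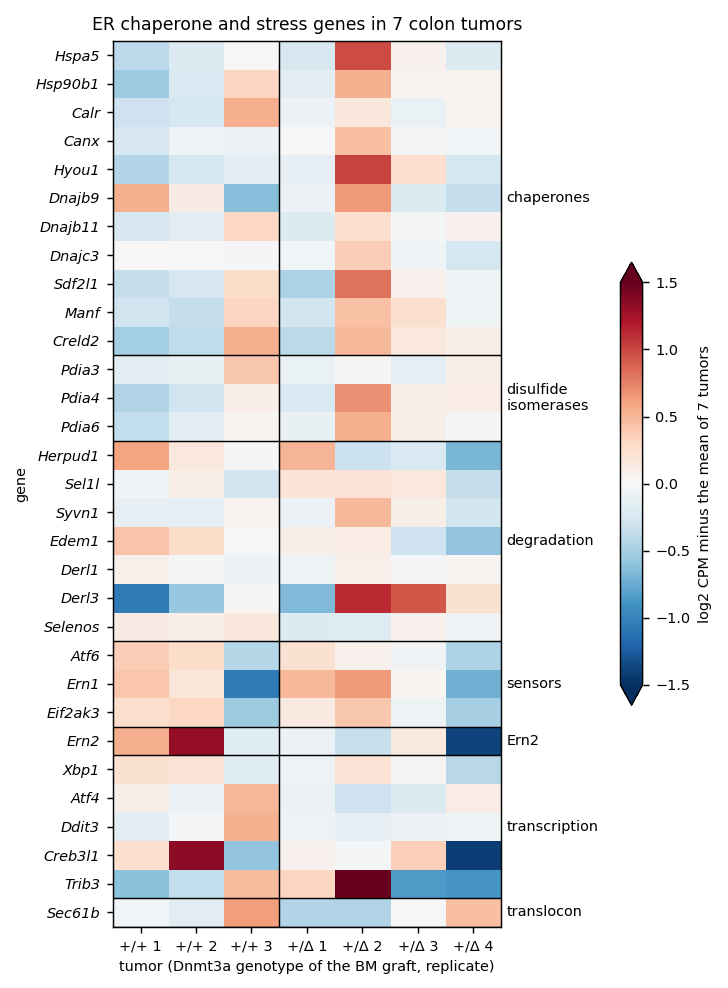
Heat map of the 31 genes (rows, grouped by role) in the 7 tumors (columns, control tumors left of the vertical line); color is log2 CPM minus the gene's mean over the 7 tumors. Most chaperones and isomerases are darkest red in *Dnmt3a*+/Δ BM replicate 2, where *Hspa5* was at 1822 CPM, while *Herpud1*, *Ern2* and *Sec61b* are not.

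The first comparison asked whether the ER genes of the tumors differed with the *Dnmt3a* genotype of the graft. By their medians the folding genes lay slightly higher with *Dnmt3a*+/Δ BM, the transcription factors and *Ern2* lower, and the sensors and degradation genes near 0, and no gene passed the test. With p adjusted by the Benjamini-Hochberg method, the quasi-likelihood test of edgeR called 0 of the 31 genes at an adjusted p under 0.05 and a log2 fold change over 1 in size, as it called 0 of all 15810 genes tested (0%). At an unadjusted p under 0.05 it had 0 of the 31, against 1744 of all genes (11.0%). DESeq2 called 0 of the 31 and 300 of all genes (1.90%), and by its unadjusted p 1 of the 31, *Ern2*, was under 0.05 (all genes, 13.3%). The lowest adjusted p of edgeR was 0.465, for *Ern2*. Log2 fold changes (*Dnmt3a*+/Δ BM over control) were above 0 for 17 of the 31 genes (54.8%) and for 50.2% of all genes. Without *Dnmt3a*+/Δ BM replicate 2, 13 of the 31 were above 0. The groups did not overlap for *Canx* alone among genes that were higher (all genes, 6.12%) and for *Selenos* alone among those that were lower (all genes, 6.32%). Medians of marker lists of other cells also differed by graft, with no adjusted p under 0.05 in edgeR's test. The lowest adjusted p from edgeR's test was 0.377 for the endothelial and 0.42 for the epithelial markers. DESeq2 called 3 of the 8 endothelial, 1 of the 12 goblet cell and 0 of the 10 epithelial markers (all genes, 1.90%). At an unadjusted p under 0.05 in edgeR's test, 5 of the 8 endothelial markers were higher (all genes in either direction, 11.0%). The groups did not overlap for 4 of the 8, all higher (all genes, 6.12%). The epithelial markers also differed between the experiments, as given further on. All 8 endothelial markers had a log2 fold change above 0 (median 1.64, and 1.16 without *Dnmt3a*+/Δ BM replicate 2) and 9 of 10 epithelial markers one below 0 (median -0.57, and -0.44), and their part in the values of the 31 genes was not tested. The tumors are bulk samples, so fewer cells of a type and less RNA per cell cannot be told apart.

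**Figure D2:**
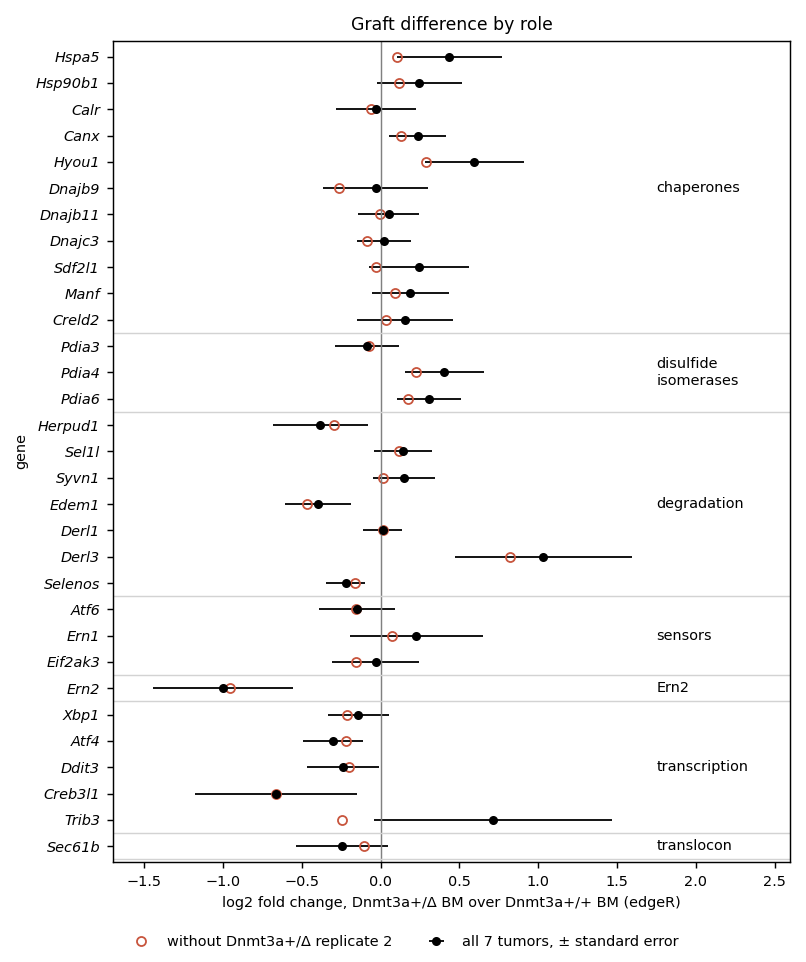
Log2 fold change of each gene (edgeR, *Dnmt3a*+/Δ BM over control) with its standard error (black, all 7 tumors) and without *Dnmt3a*+/Δ BM replicate 2 (open red circles), in order of role. The values run from -1.001 for *Ern2* to 1.03 for *Derl3*, and the chaperones other than *Calr*, *Dnajb9* and *Dnajc3* move toward 0 without that tumor.

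Of the 11 chaperones, 9 had a log2 fold change above 0, with a median of 0.19 beside 0.0025 over all genes. Without *Dnmt3a*+/Δ BM replicate 2 the median was 0.036, with 6 of 11 above 0. *Hspa5*, which also holds the stress sensors inactive, was at 702, 798 and 925 CPM in the control tumors and 781, 1822, 966 and 803 CPM in the *Dnmt3a*+/Δ BM tumors. Replicate 2 was far above all other tumors, and the other 3 lay within the range of the control tumors or just above it. The log2 fold change of *Hspa5*, given with ± its standard error as for the genes that follow, was 0.44 ± 0.33 (adjusted p = 0.658 from edgeR's test), and 0.10 without replicate 2. *Hyou1*, the nucleotide exchange factor of BiP, was at 118, 133 and 142 CPM and 148, 323, 190.3 and 133 CPM. Here too replicate 2 was highest, replicates 1 and 3 were above all control tumors, and replicate 4 was among them. It had the largest log2 fold change of the chaperones, 0.60 ± 0.31 (adjusted p = 0.522 from edgeR's test), and 0.29 without replicate 2.

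*Canx*, which encodes the membrane-bound lectin chaperone calnexin, was at 353, 400.4 and 389.6 CPM in the control tumors and 413, 568, 409 and 403 CPM in the *Dnmt3a*+/Δ BM tumors. Each *Dnmt3a*+/Δ BM tumor was above each control tumor, 3 of them by little. Over all 35 ways to divide the tumors, for which the smallest possible p is 0.0286, the exact permutation test gave a two-sided p of 0.143, and the log2 fold change was 0.23 ± 0.18 (adjusted p = 0.658 from edgeR's test), and 0.13 without replicate 2. *Calr*, the most abundant gene, was at 986, 1013 and 1776 CPM and 1146, 1373, 1141 and 1267 CPM, with the highest level in control replicate 3. Its log2 fold change of -0.031 ± 0.25 had a 95% confidence interval from -0.62 to 0.56, and the value was -0.062 without *Dnmt3a*+/Δ BM replicate 2. *Hsp90b1* was also higher in control replicate 3 (1001 CPM) than in the other control tumors (546 and 680.1 CPM), and *Dnmt3a*+/Δ BM replicate 2 was at 1153 CPM (log2 fold change 0.24 ± 0.27, and 0.11 without that tumor).

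The co-chaperones and smaller factors had log2 fold changes between -0.030 and 0.24. *Dnajb9*, *Dnajb11* and *Dnajc3*, J-domain partners of BiP, had values of -0.030 ± 0.33, 0.050 ± 0.19 and 0.022 ± 0.17, which were -0.27, -0.0036 and -0.088 without *Dnmt3a*+/Δ BM replicate 2. The 3 control tumors hardly differed in *Dnajc3*, at 136, 135 and 134 CPM. *Sdf2l1*, a component of the BiP chaperone cycle, had a log2 fold change of 0.24 ± 0.31 that was -0.032 without *Dnmt3a*+/Δ BM replicate 2 (89.1 CPM there, 36.4 to 61.5 CPM in the other 6 tumors). *Manf*, a secreted stress factor that binds BiP, and *Creld2*, a stress-induced protein with disulfide isomerase activity, had log2 fold changes of 0.19 ± 0.25 and 0.15 ± 0.31, and of 0.089 and 0.036 without that tumor. The exons of *Manf* overlap those of *Rbm15b* and *Dcaf1*, with 20731 and 10210 counts over the 7 tumors beside 75062 for *Manf*. The share of reads that RSEM moved between them was not tested.

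The 3 disulfide isomerases had a median log2 fold change of 0.30, and of 0.17 without *Dnmt3a*+/Δ BM replicate 2. *Pdia4* (ERp72) was at 149, 165 and 218 CPM in the control tumors and 174, 329, 217 and 219.6 CPM in the *Dnmt3a*+/Δ BM tumors, again with replicate 2 highest. Its log2 fold change was 0.40 ± 0.25 (adjusted p = 0.577 from edgeR's test), and 0.23 without that tumor. *Pdia6*, which works beside BiP, had one of 0.30 ± 0.20 (0.17 without it), and *Pdia3*, which works with calreticulin and calnexin on glycoproteins, one of -0.087 ± 0.20. The plot of 12 genes by tumor shows *Hspa5*, *Hyou1* and *Pdia4* in its top row.

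**Figure D3:**
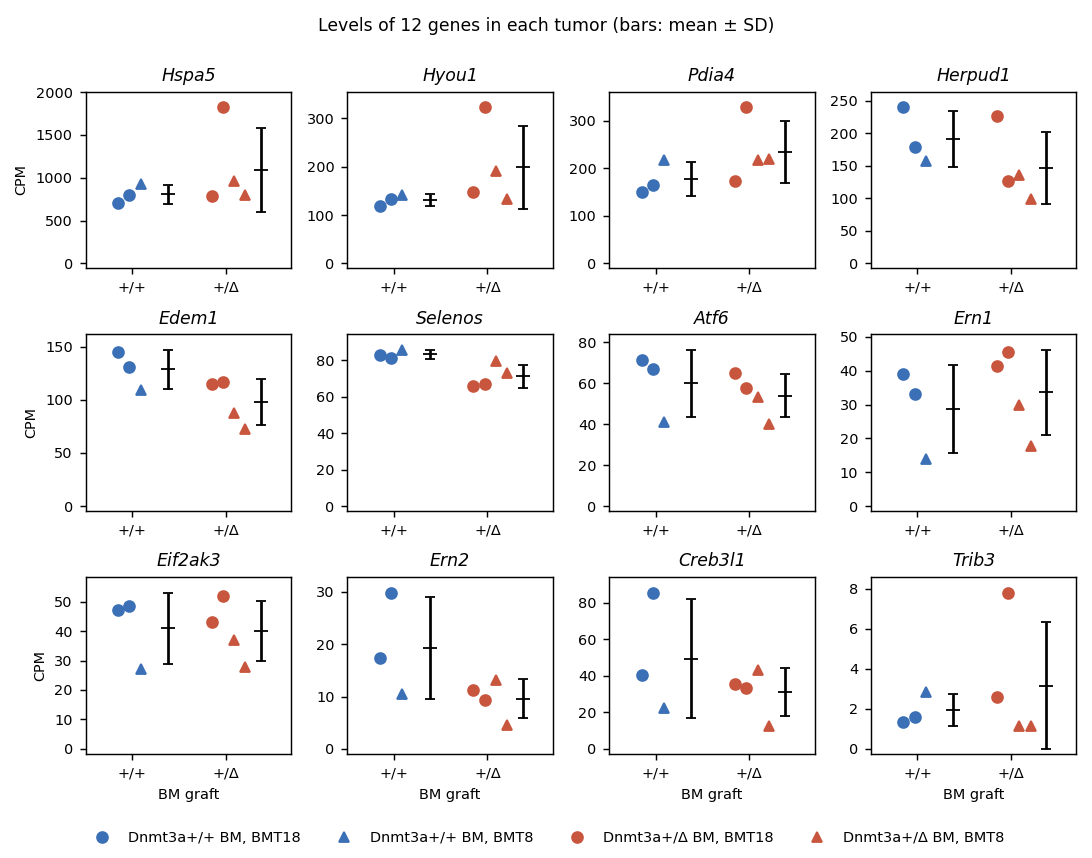
CPM of 12 of the genes in each tumor (points; circles BMT18, triangles BMT8; blue control, red *Dnmt3a*+/Δ BM) with the group mean ± SD (black). *Dnmt3a*+/Δ BM replicate 2 is highest for *Hspa5*, *Hyou1*, *Pdia4* and *Trib3*, the triangles lie below the circles for *Atf6*, *Ern1* and *Eif2ak3*, and the groups do not overlap for *Selenos*.

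The 7 degradation genes went both ways, 4 above and 3 below 0, with a median log2 fold change of 0.012, and of 0.014 without *Dnmt3a*+/Δ BM replicate 2. *Edem1*, a lectin that hands misfolded glycoproteins over for degradation, was at 145, 131 and 109 CPM in the control tumors and 115, 117, 87.2 and 72.1 CPM in the *Dnmt3a*+/Δ BM tumors. Both BMT8 tumors of the *Dnmt3a*+/Δ BM group were below all other tumors, and the 2 BMT18 tumors of that group lay between the control values. The log2 fold change was -0.40 ± 0.21 (adjusted p = 0.521 from edgeR's test), -0.47 without replicate 2 and -0.34 with the experiment as a covariate. *Selenos*, a selenoprotein that recruits the extraction ATPase to the membrane, was at 82.7, 81.0 and 85.5 CPM and 65.7, 66.6, 79.3 and 73.1 CPM. Each *Dnmt3a*+/Δ BM tumor was below each control tumor, by -0.22 ± 0.13 on the log2 scale (exact permutation test, two-sided p = 0.0571; adjusted p = 0.543 from edgeR's test). Scaled by library size alone, where the median over all genes was 0.21, this value was -0.0081.

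*Herpud1*, a membrane protein that scaffolds the degradation complex, was at 239.7, 178 and 157 CPM in the control tumors and 227, 127, 136 and 98.5 CPM in the *Dnmt3a*+/Δ BM tumors. Unlike the chaperones it was not raised in replicate 2, which was lower than all control tumors. The log2 fold change was -0.38 ± 0.30 (adjusted p = 0.663 from edgeR's test). *Sel1l* and *Syvn1*, the adaptor and the ubiquitin ligase (Hrd1) of the same complex, had log2 fold changes of 0.14 ± 0.18 and 0.15 ± 0.20, the latter 0.014 without replicate 2. *Syvn1* overlaps *Mrpl49* on the opposite strand, with 11872 counts beside 12229, and the strand setting of the counting is not given in the sources used here. *Derl1*, a channel component, had the smallest standard error of the 31 genes, with a log2 fold change of 0.012 ± 0.12 and a 95% confidence interval from -0.28 to 0.30.

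*Derl3* had the highest log2 fold change of the 31 genes on very few reads. Its counts ran from 7 to 42 per tumor, or 0.188, 0.265 and 0.398 CPM in the control tumors and 0.250, 0.856, 0.751 and 0.460 CPM in the *Dnmt3a*+/Δ BM tumors. The *Dnmt3a*+/Δ BM replicates 2 to 4 were above all control tumors and replicate 1 was among them. The value was 1.03 ± 0.56 (adjusted p = 0.532 from edgeR's test), and 0.82 without replicate 2. *Derl3* is known from plasma cells. Its log2 CPM was set against the mean of 11 plasma cell markers, 6 of which had 3 or fewer counts in a tumor, over the 7 tumors (Pearson r = 0.325, exact permutation p = 0.469, adjusted p = 0.591 over 3 relations; Spearman rho = 0.0714, p = 0.906, adjusted p = 0.906). It was r = -0.245 without control replicate 3 and *Dnmt3a*+/Δ BM replicate 2, the 2 tumors farthest from the median of the markers. Within the experiments r was 0.686 in BMT18 (n = 4) and 1.0 in BMT8 (n = 3).

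None of the 3 stress sensors differed with the graft beyond the spread between tumors. *Atf6* was at 71.4, 67.0 and 41.2 CPM in the control tumors and 64.9, 57.8, 53.2 and 40.0 CPM in the *Dnmt3a*+/Δ BM tumors. *Ern1* was at 39.0, 33.1 and 14.0 CPM and 41.2, 45.5, 29.8 and 17.7 CPM, and *Eif2ak3* at 47.1, 48.6 and 27.0 CPM and 43.1, 52.0, 37.1 and 27.8 CPM. In each gene the low values were those of control replicate 3 and *Dnmt3a*+/Δ BM replicates 3 and 4, the BMT8 tumors. The log2 fold changes were -0.15 ± 0.24 for *Atf6* (95% confidence interval -0.70 to 0.41), 0.23 ± 0.42 for *Ern1* (-0.75 to 1.204) and -0.032 ± 0.28 for *Eif2ak3* (-0.67 to 0.61). Their adjusted p from edgeR's test were 0.863, 0.889 and 0.981. Without *Dnmt3a*+/Δ BM replicate 2 the value of *Ern1* was 0.069 and that of *Eif2ak3* -0.16. These values are of mRNA, and splicing of *Xbp1*, phosphorylation of PERK and cutting of ATF6 were not measured.

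The epithelial sensor *Ern2* had a log2 fold change opposite in sign to that of *Ern1*, whose own sign turned without control replicate 3 (-0.099). It was at 17.4, 29.8 and 10.5 CPM in the control tumors and 11.3, 9.41, 13.2 and 4.57 CPM in the *Dnmt3a*+/Δ BM tumors. Control replicates 1 and 2 were highest, and control replicate 3 lay among the *Dnmt3a*+/Δ BM tumors, of which replicate 4 was lowest. The log2 fold change was -1.001 ± 0.44, with a 95% confidence interval from -2.03 to 0.030 (adjusted p = 0.465 in edgeR, 0.322 in DESeq2). It was -0.54 without control replicate 2 and -0.96 without *Dnmt3a*+/Δ BM replicate 2. The ratio of *Ern2* to *Ern1*, in CPM, was 0.447, 0.9 and 0.751 in the control tumors and 0.273, 0.207, 0.443 and 0.258 in the *Dnmt3a*+/Δ BM tumors. All 4 ratios with *Dnmt3a*+/Δ BM were below the 3 controls, the closest pair at 0.443 and 0.447; this ratio was formed after the levels had been seen and was not tested.

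Goblet cell markers moved with *Ern2* across the tumors. The summed level of 12 markers was 3611, 4936 and 1961 CPM in the control tumors and 1944, 2580, 2573 and 838 CPM in the *Dnmt3a*+/Δ BM tumors, and 11 of the 12 had a log2 fold change below 0 (median -0.82). The log2 CPM of *Ern2* followed the mean log2 CPM of the markers with Pearson r = 0.936 (exact permutation p = 0.00417, adjusted p = 0.0125 over 3 relations) and Spearman rho = 0.893 (p = 0.0123, adjusted p = 0.0369, n = 7). Without control replicate 2 and *Dnmt3a*+/Δ BM replicate 4, the 2 tumors farthest from the median of the markers, r was 0.687. It was 0.921 within BMT18 (n = 4) and 0.967 within BMT8 (n = 3). *Spink4*, a peptide of goblet cells, was at 393, 502 and 414 CPM and 195, 215, 209.7 and 175 CPM, with adjusted p = 0.361 in edgeR and 1.61e-06 in DESeq2. *Muc2*, the mucin that fills these cells, was at 249.7, 435 and 236 CPM and 300.3, 554, 261 and 85.4 CPM, and had its highest level in *Dnmt3a*+/Δ BM replicate 2, where *Ern2* did not. The summed level of 7 enteroendocrine markers was 126, 167 and 42.2 CPM in the control tumors and 75.1, 48.1, 95.3 and 82.9 CPM in the *Dnmt3a*+/Δ BM tumors, highest in control replicates 1 and 2 as *Ern2* was. All 7 had a log2 fold change below 0 (median -0.68), as had 9 of the 10 epithelial markers. The part of goblet, enteroendocrine or other epithelial cell content in the *Ern2* values was not tested.

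**Figure D4:**
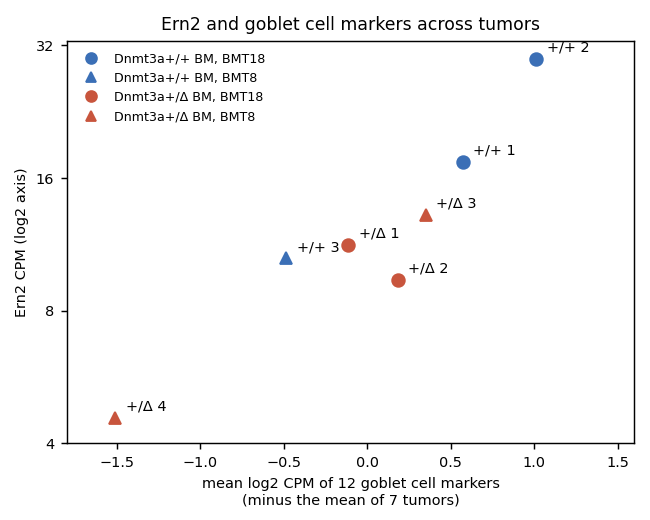
*Ern2* CPM (y axis, log2 scale) against the mean log2 CPM of 12 goblet cell markers (x axis, minus the mean of the 7 tumors), 1 point per tumor (circles BMT18, triangles BMT8; blue control, red *Dnmt3a*+/Δ BM). The points rise together (Pearson r = 0.936), from *Dnmt3a*+/Δ BM replicate 4 at 4.57 CPM to control replicate 2 at 29.8 CPM.

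Of the 5 transcription factors and regulators, 4 had a log2 fold change below 0, with a median of -0.24. *Creb3l1*, a membrane-bound transcription factor (OASIS) cut in the same way as ATF6, was at 40.5, 85.5 and 22.5 CPM in the control tumors and 35.4, 33.4, 43.4 and 12.7 CPM in the *Dnmt3a*+/Δ BM tumors. Control replicate 2 was highest and *Dnmt3a*+/Δ BM replicate 4 lowest, as for *Ern2* and for the summed goblet cell markers (4936 and 838 CPM). The relation of *Creb3l1* to the goblet cell markers was not tested. The log2 fold change was -0.66 ± 0.52 (adjusted p = 0.661 from edgeR's test), and -0.014 without control replicate 2. The relation of its log2 CPM to the mean of 10 fibroblast markers was not past the threshold (Pearson r = -0.163, exact permutation p = 0.591, adjusted p = 0.591; Spearman rho = -0.143, p = 0.783, adjusted p = 0.906; r = 0.0953 without control replicate 2 and *Dnmt3a*+/Δ BM replicate 2). Within the experiments r was -0.621 in BMT18 (n = 4) and 0.0548 in BMT8 (n = 3).

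*Trib3* was at 1.34, 1.59 and 2.84 CPM in the control tumors and 2.57, 7.80, 1.14 and 1.11 CPM in the *Dnmt3a*+/Δ BM tumors. A single tumor, replicate 2, set the direction, since the log2 fold change was 0.71 ± 0.76 with it and -0.24 without it. *Xbp1*, the factor that IRE1 activates, had a log2 fold change of -0.14 ± 0.19 (-0.21 without that tumor). *Atf4*, the translationally controlled factor below PERK, had one of -0.30 ± 0.19 (adjusted p = 0.58 from edgeR's test), and *Ddit3*, the pro-apoptotic factor CHOP, one of -0.24 ± 0.23. *Ddit3* was between 9.35 and 9.76 CPM in all 4 *Dnmt3a*+/Δ BM tumors and at 9.08, 10.1 and 14.8 CPM in the control tumors. It overlaps *Mars* on the opposite strand, which had 21441 counts beside 3142. *Sec61b*, a subunit of the channel through which proteins enter the ER, had a log2 fold change of -0.25 ± 0.29, and of -0.11 without *Dnmt3a*+/Δ BM replicate 2.

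*Dnmt3a*+/Δ BM replicate 2 held the highest level of the 7 tumors in 16 of the 31 genes (51.6%), against 24.7% of all genes tested. These were 8 of the 11 chaperones, 2 of the 3 isomerases, 3 of the 7 degradation genes, 2 of the 3 sensors and *Trib3*, and neither *Ern2* nor *Sec61b*. Measured as its log2 CPM minus the median of the other 6 tumors, it was above them by a median of 0.61 in the chaperones, from 0.26 for *Calr* to 1.23 for *Hyou1*. The median was 0.61 in the isomerases, 0.38 in the sensors, 0.096 in the degradation genes and -0.054 in the transcription factors, and -0.0143 over all genes. Among the degradation genes *Derl3* (1.28) and *Syvn1* (0.58), which hold an ERSE, were above the other tumors, *Herpud1* (-0.40) and *Selenos* (-0.27) below, and *Edem1*, *Derl1* and *Sel1l* within 0.19 of them. *Trib3* stood farthest, at 2.38.

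The 9 genes with an ERSE printed above had a median of 0.59 in that tumor, with all 9 above 0. The 16 genes with a promoter and no ERSE had a median of 0.22, with 11 above 0 (all genes, 49.0%). These 16 include *Dnajb11* and *Herpud1*, which hold an ERSE-II. Genes with and without an ERSE also differ in role, as given above. All 14 chaperones and isomerases were above 0 in that tumor. Those with a promoter and no ERSE were *Sdf2l1* at 0.97, *Dnajb9* at 0.78, *Pdia4* at 0.76, *Dnajb11* at 0.35 and *Pdia3* at 0.12. Those with an ERSE ran from 0.26 for *Calr* to 1.19 for *Hspa5*. By graft, the median log2 fold change was 0.23 for the 9 genes with an ERSE and -0.060 for the 16 without. Without replicate 2 these medians were 0.10 and -0.16. Neither comparison has a test, and the one within replicate 2 rests on 1 tumor. The cytosolic heat shock genes, a list kept beside the 31, were also high in the same tumor, with a median of 0.58 over 14 genes and the highest level there in 10 of them. *Hsph1*, an Hsp110 of the cytosol, was at 226 CPM in it and at 21.5 to 59.3 CPM in the other 6 tumors. The tumor's higher fibroblast, endothelial, plasma cell, macrophage and leukocyte markers and its lower epithelial markers, given above, move with these values, and their part was not tested.

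**Figure D5:**
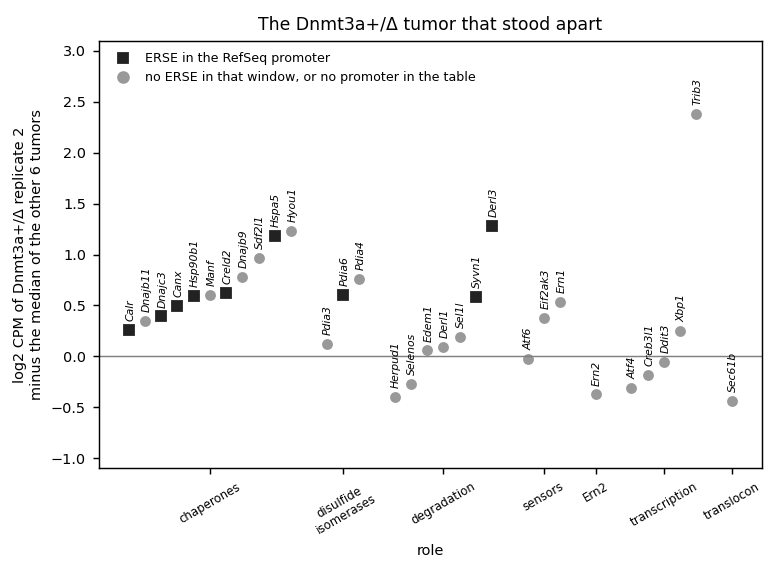
Log2 CPM of each gene in *Dnmt3a*+/Δ BM replicate 2 minus the median of the other 6 tumors (y axis), by role (x axis); black squares mark genes with an ERSE in the RefSeq promoter, grey circles the rest. All chaperones lie above 0, up to 1.23 for *Hyou1*, and *Herpud1*, *Selenos*, *Ern2*, *Atf4*, *Sec61b*, *Creb3l1*, *Ddit3* and *Atf6* lie below.

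The 3 sensors had larger log2 differences between the transplantation experiments than between the grafts, with no adjusted p under 0.05. This contrast was added after the levels had been seen, as the coefficient of BMT8 over BMT18 in an edgeR fit with graft and experiment. It called 0 of the 31 genes, and 1 of all 15810 (0.00633%). At an unadjusted p under 0.05 it had 6 of the 31, *Ern1*, *Eif2ak3*, *Atf6*, *Edem1* and *Dnajb9* lower and *Sec61b* higher in BMT8, a share like that of all genes (19.4%). *Ern1* was at 39.7 ± 5.16 CPM (SD, n = 4) in BMT18 and 20.5 ± 8.27 CPM (SD, n = 3) in BMT8, a log2 difference of -1.06 ± 0.23 (adjusted p = 0.191 from edgeR's test). The differences were -0.66 ± 0.16 for *Eif2ak3*, -0.54 ± 0.16 for *Atf6*, -0.46 ± 0.13 for *Edem1* and -0.75 ± 0.23 for *Dnajb9*. *Sec61b* had one of 0.71 ± 0.14. The same 5 genes were below in every BMT8 tumor without overlap (all genes, 6.84%), and *Sec61b* above (all genes, 7.69%). Cell markers differed between the experiments too, with list medians from -1.375 for plasma cell to 0.60 for epithelial markers. At an unadjusted p under 0.05, 7 of 10 epithelial markers were higher in BMT8 and 5 of 9 plasma cell markers tested were lower. Their lowest adjusted p from edgeR's test were 0.191 and 0.198. The part of cell content in the differences of the sensors was not tested.

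With each tumor left out in turn, the difference of *Ern1* between experiments stayed between -1.33 and -0.88, that of *Eif2ak3* between -0.80 and -0.57 and that of *Atf6* between -0.68 and -0.41. The chaperones had a median of 0.059, and *Hspa5* had -0.20 ± 0.34. With the experiment in the fit, the graft difference of *Ern1* was 0.46 in place of 0.23, that of *Ern2* -0.83 in place of -1.001 and that of *Hspa5* 0.44 in place of 0.44. Whether the graft difference itself differed between the experiments was tested as an interaction, and the lowest adjusted p over all genes was 0.9999. *Trib3* had the lowest unadjusted interaction p of the 31 genes, 0.0164. BMT8 has 1 control tumor, so graft differences within it have no spread of their own.

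The other genes of the pathway were taken from lists by function. Over all genes tested, 922 were higher and 822 lower at an unadjusted p under 0.05 in edgeR's test (11.0% together). The counts below are to be read beside that share. Of 13 other genes of oxidative folding, 0 were higher and 1 lower at an unadjusted p under 0.05. The median log2 fold change was -0.13, and -0.085 without *Dnmt3a*+/Δ BM replicate 2. The lower one was *Agr2*, an isomerase that mucin folding in goblet cells needs, at 398, 615 and 403 CPM in the control tumors and 306, 240.4, 319 and 133 CPM in the *Dnmt3a*+/Δ BM tumors. Its groups did not overlap (-0.92 ± 0.32, adjusted p = 0.406 from edgeR's test), and it is also 1 of the 12 goblet cell markers. *Ero1b*, an oxidase of the isomerases, had the highest value of this list, 0.51 ± 0.50, and 0.0060 without *Dnmt3a*+/Δ BM replicate 2. Of 24 genes of the translocon and of N-glycosylation, 0 were higher and 1 lower, *Ssr4*, a subunit of the translocon-associated complex (-0.64 ± 0.22, adjusted p = 0.406 from edgeR's test). The highest was *Dad1*, of the oligosaccharyltransferase, at 0.33 ± 0.28. Of 18 other degradation genes, 0 were higher and 1 lower, the lectin *Erlec1* (-0.39 ± 0.14, adjusted p = 0.406 from edgeR's test). There the values ran from -0.42 for *Man1b1*, a mannosidase that marks glycoproteins for removal, to 0.28 for *Vcp*, the ATPase that extracts them.

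Of 21 genes known as targets of PERK and ATF4, 1 was higher and 1 lower at an unadjusted p under 0.05 (all genes, 11.0% together). The median log2 fold change was 0.25. *Slc7a5*, an amino acid transporter, was at 32.6, 30.4 and 24.9 CPM in the control tumors and 58.3, 63.4, 36.4 and 34.6 CPM in the *Dnmt3a*+/Δ BM tumors (0.72 ± 0.26, adjusted p = 0.407 from edgeR's test). *Cebpb*, a transcription factor, was at 16.6, 7.04 and 13.6 CPM and 6.36, 8.11, 4.47 and 6.41 CPM (-0.97 ± 0.35, adjusted p = 0.407). *Atf3*, which had the highest value at 0.89 ± 0.75, varied from 16.01 to 129 CPM between tumors. Of the 15 regulators of ER stress and of traffic to the Golgi, 2 were higher and 2 lower at that threshold. The relatives of *Creb3l1* made up 3 of these 4. *Creb3l2* was at 15.2, 11.6 and 14.4 CPM and 22.7, 58.4, 27.5 and 22.6 CPM (1.26 ± 0.37), while *Creb3l3*, a factor of enterocytes and liver, was at 13.2, 6.48 and 6.52 CPM and 4.67, 2.73, 4.06 and 3.19 CPM (-1.25 ± 0.36). The groups overlapped in neither, and the adjusted p were 0.377 and 0.373 from edgeR and 0.0502 and 0.0467 from DESeq2, which called 1 gene of this list, *Creb3l3*. *Creb3* had -0.48 ± 0.20, and *Wfs1*, the ER protein of Wolfram syndrome, 0.55 ± 0.23. Of the 14 cytosolic heat shock genes, 0 were at that threshold (median 0.31, and 0.16 without *Dnmt3a*+/Δ BM replicate 2), with values from -0.23 for the co-chaperone *Dnajb1* to 1.65 for *Hsph1* (0.63 without that tumor).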

How the data were processed

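Per the labels and the study's methods, polyadenylated RNA of each tumor was sequenced from a directional library. The authors used Trimmomatic for trimming, STAR 2.7.3a for alignment to mm10 and RSEM 1.2.31 for counting per gene. The deposited values are these estimated counts, all whole numbers (100%) and not normalized, in 1 column per tumor, so no rounding was needed. The annotation release and the strand setting are not given in the sources used here. The design text counts the tumors as animals, and no tumors were counted as duplicates.

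Symbols, positions and exon lengths came from GENCODE for GRCm38. Rows with no symbol took 0.104% of all counts. Genes were kept with filterByExpr (15810 of 43346; all 31 members) and tested with edgeR 4.0.16 in R 4.3.3 (TMM, quasi-likelihood test, Benjamini-Hochberg adjustment over all genes tested, no covariate). A call needed an adjusted p under 0.05 and a log2 fold change over 1 in size. Mean log2 CPM used a prior count of 2. DESeq2 1.42.0 was an alternative, and its missing adjusted p were kept missing. Permutation tests enumerated all splits or pairings and were two-sided. Values within experiments were also taken. The members, lists and tests were chosen with earlier results of these data known.

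All members are given. Values in every tumor are printed for the most abundant member, for the 3 highest and 3 lowest log2 fold changes, for members whose groups do not overlap, for the sensors and *Ern2*, and for *Hspa5*, *Pdia4* and *Herpud1*, added after their values were seen. Of the other pathway lists, the highest and lowest genes and those at an unadjusted p under 0.05 are named. On simulated counts with 200 of 15774 genes changed 4-fold or 8-fold and the dispersion of each gene, edgeR recovered 147 with 9 false calls and DESeq2 174 with 70.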

Additional observations from a re-analysis of the deposited data

Results flagged for a closer look

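Among the 31 genes in the 4 *Dnmt3a*+/Δ BM tumors, 2 had a tumor far from the other 3 by Dixon's test, where chance gives about 1.55 (1 in 20 groups). *Canx* was at 568 CPM in replicate 2, above the other 3 tumors. *Sel1l* was at 60.7 CPM in replicate 4, below the other 3 tumors. The group of 3 control tumors is too small for this test.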

How the results depend on the processing

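No member passed an adjusted p of 0.05 under any of 16 alternatives, where the lowest adjusted p was 0.308, and 15 of 31 kept the sign of their log2 fold change in all of them. *Derl3* kept it in the 15 it was tested in, being removed by the stricter filter. Over all genes edgeR called 0 under each alternative, whereas DESeq2 called 300, and, in fits added after seeing the data, 238, 51 and 427 without control replicates 1 to 3 and 637, 162, 200 and 247 without *Dnmt3a*+/Δ BM replicates 1 to 4. Members at an unadjusted p under 0.05 numbered 1 with DESeq2 (all genes, 13.3%) and in BMT18 alone (9.46%), 2 with the experiment as a covariate (14.7%), 2 with the replicate block (11.9%), and 0 to 2 with each tumor left out (5.42% to 13.7%). Replicate numbers did not pair all of the tumors (correlations of deviations 0.568, 0.0711 and -0.0377). Not every control tumor correlated best with the *Dnmt3a*+/Δ BM tumor of its own number. Under library size only (median over all genes 0.21) the median of the degradation genes was 0.23, and signs reversed for *Calr* (0.21), *Dnajb9* (0.20), *Pdia3* (0.14), *Atf6* (0.055), *Eif2ak3* (0.18) and *Xbp1* (0.081). They reversed with upper-quartile scaling for *Calr* (0.056), *Dnajb9* (0.057) and *Eif2ak3* (0.053), with the experiment as a covariate for *Dnajb9* (0.13) and *Eif2ak3* (0.10), and with the replicate block for *Calr* (0.0082), *Dnajb9* (0.12), *Atf6* (0.0054) and *Eif2ak3* (0.14). In BMT18 alone they reversed for *Calr* (0.35), *Pdia3* (0.12), *Derl1* (-0.017), *Eif2ak3* (0.0056) and *Ddit3* (0.0021). With each tumor left out, log2 fold changes crossed 0 for *Calr* (-0.18 to 0.30), *Dnajb9* (-0.29 to 0.26), *Dnajb11* (-0.059 to 0.24), *Dnajc3* (-0.088 to 0.11), *Sdf2l1* (-0.032 to 0.47), *Creld2* (-0.038 to 0.56), *Pdia3* (-0.19 to 0.11), *Derl1* (-0.027 to 0.059), *Ern1* (-0.099 to 0.50), *Eif2ak3* (-0.26 to 0.11), *Trib3* (-0.24 to 1.11) and *Sec61b* (-0.47 to 0.030). Differences between settings were not traced to a cause. With 3 and 4 tumors a group, the standard errors of the members were 0.12 to 0.76 on the log2 scale, and *Derl3* (7 to 42 counts per tumor) and *Trib3* (41 to 383) had the fewest reads.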
